A study of Mus musculus with 6 samples.

Results

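miR-126 is the microRNA (miRNA) of the endothelial gene Egfl7, and its locus was followed here in small RNA libraries of the mouse heart. The members were the rows of the count files named Mir126, Mir126a or Mir126b, for both arms and both strands. The rule found 3 of the 1102 rows, which were the sense rows of the 5p and 3p arms of Mir126 and an antisense row at the 3p arm. The files' Mir126 has the position and transcript of Mir126a in the GENCODE M21 annotation, and the arms are called miR-126a-5p and miR-126a-3p here.

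Small RNA was sequenced from 6 male mice of 18 weeks, wild type on the C57BL/6J strain. Each heart gave 1 library (hearts 1 to 6), and all belong to 1 group. The labels name no allele, transgene or treatment, and call the tissue whole heart where their protocol describes the frozen apex of the ventricles. Library totals ran from 3966169 to 6007322 counts over 975 mature miRNAs, and values are given as reads, as a share of that total, or as CPM, the reads scaled to 1000000 per library.

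An miRNA gene is transcribed into a hairpin, from which Drosha and Dicer cut a duplex of the 5p and the 3p arm. An Argonaute protein keeps one strand of the duplex as a guide to messenger RNAs and the other strand is usually lost. miR-126 is known as the most typical miRNA of endothelial cells. Its 3p arm represses Spred1 and Pik3r2, inhibitors of signalling by vascular endothelial growth factor, and so supports angiogenesis and the integrity of vessels. The 5p arm is known in mouse endothelium as a repressor of Dlk1, an inhibitor of endothelial proliferation.

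The hairpin is shown because both arms counted in the files lie in it. Capitals mark first the stretch that the files count as 5p and then the stretch that they count as 3p. The sequence is from RefSeq on GRCm38.p6, the build named in the submitters' processing notes being GRCm38.
Mir126a hairpin, chr2:26591357-26591429, plus strand: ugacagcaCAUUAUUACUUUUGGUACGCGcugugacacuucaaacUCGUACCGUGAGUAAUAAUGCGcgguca

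In the files the 5p arm spans chr2:26591365-26591385 (21 bases) and the 3p arm chr2:26591402-26591423 (22 bases), with 16 bases between them. The hairpin lies within Egfl7, which RefSeq places at chr2:26581083-26592682. Of the 9 Egfl7 transcripts of GENCODE M21 that span the hairpin, 8 have it in an intron and 1, a retained-intron transcript, has it in an exon. RNAfold gave the hairpin a minimum free energy of -31.2 kcal/mol, with 18 base pairs between the arms, of which 10 were A with U, 6 were C with G and 2 were G with U.

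The mature sequences below are shown because the reverse strand of the locus carries a hairpin of its own, Mir126b. Capitals mark the seed, bases 2 to 8, with which an miRNA recognises its targets.
miR-126a-3p: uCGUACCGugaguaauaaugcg
miR-126b-5p: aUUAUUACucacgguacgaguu
miR-126b-3p: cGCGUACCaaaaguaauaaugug

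The 58 bases of the Mir126b hairpin are the reverse complement of a stretch of the 73 bases of Mir126a. The start of miR-126b-5p repeats 9 bases of the miR-126a-5p stretch, from its base 2 on, after which they differ. The seed of miR-126a-3p was found in no other of the 1679 mature mouse miRNAs in the RefSeq table. Bases 2 to 8 of the 5p stretch were the seed of none of the listed miRNAs, among which miR-126a-5p itself is not an entry.

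**Figure D1:**
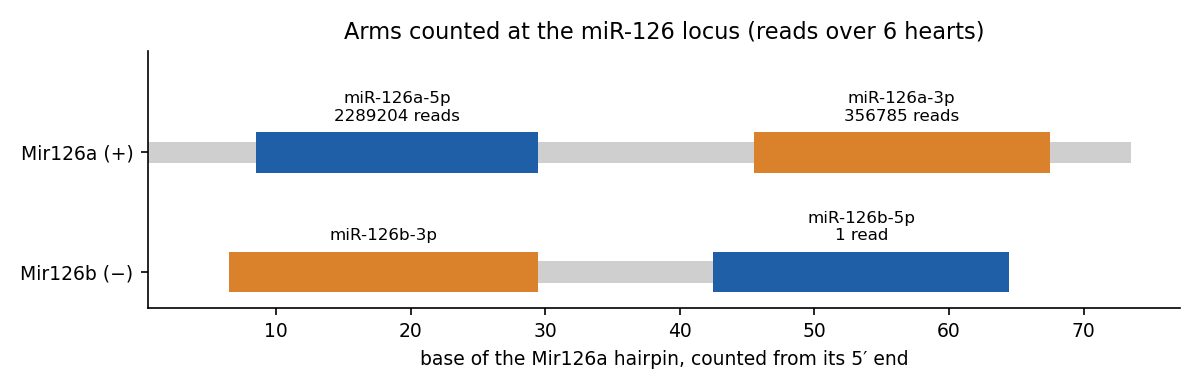
Arms at the miR-126 locus, with position along the Mir126a hairpin in bases on the x axis and the 2 strands on the y axis; grey bars are hairpins, blue bars 5p arms and orange bars 3p arms, with reads summed over 6 hearts. The Mir126a strand holds 2289204 reads of the 5p arm and 356785 of the 3p arm, while the only read facing them was at the position of miR-126b-5p.

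Nearly all reads of the locus came from the Mir126a strand. The antisense row at the 3p arm, whose position shares 19 bases with miR-126b-5p, held 1 read in heart 4 and 0 in the other hearts. That read was 3.78e-05% of the 2645990 reads of the locus (exact Clopper-Pearson 95% interval 9.57e-07% to 0.000211%, counting error only). No row of the files lists antisense reads at the 5p arm, where miR-126b-3p lies.

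miR-126a-5p was among the most abundant miRNAs of every heart. It had 352241, 409968, 305730, 328659, 460919 and 431687 reads in hearts 1 to 6, which were 7.40%, 8.25%, 7.23%, 8.29%, 7.67% and 7.70% of the library totals. Hearts 2 and 4 were the highest and hearts 1 and 3 the lowest, and the highest share was 1.15 times the lowest. The mean was 7.76% ± 0.434 (SD, n = 6). In order of reads the arm was number 5 in hearts 1, 2, 3, 5 and 6, and number 4 in heart 4.

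miR-126a-3p, the arm whose targets are best described, had fewer reads in every heart. Its reads were 49433, 60165, 49215, 57079, 72384 and 68509 in hearts 1 to 6, or 1.04%, 1.21%, 1.16%, 1.44%, 1.20% and 1.22% of the library totals. Heart 4 was the highest and heart 1 the lowest, and the other hearts lay close together. The mean was 1.21% ± 0.130 (SD, n = 6), with a place between 15 and 17 in each library. Both arms together held 8.97% ± 0.537 of the counts, from 8.40% in heart 3 to 9.73% in heart 4. In bulk tissue, fewer cells of a type and less RNA per cell cannot be told apart, so these shares do not count endothelial cells.

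**Figure D2:**
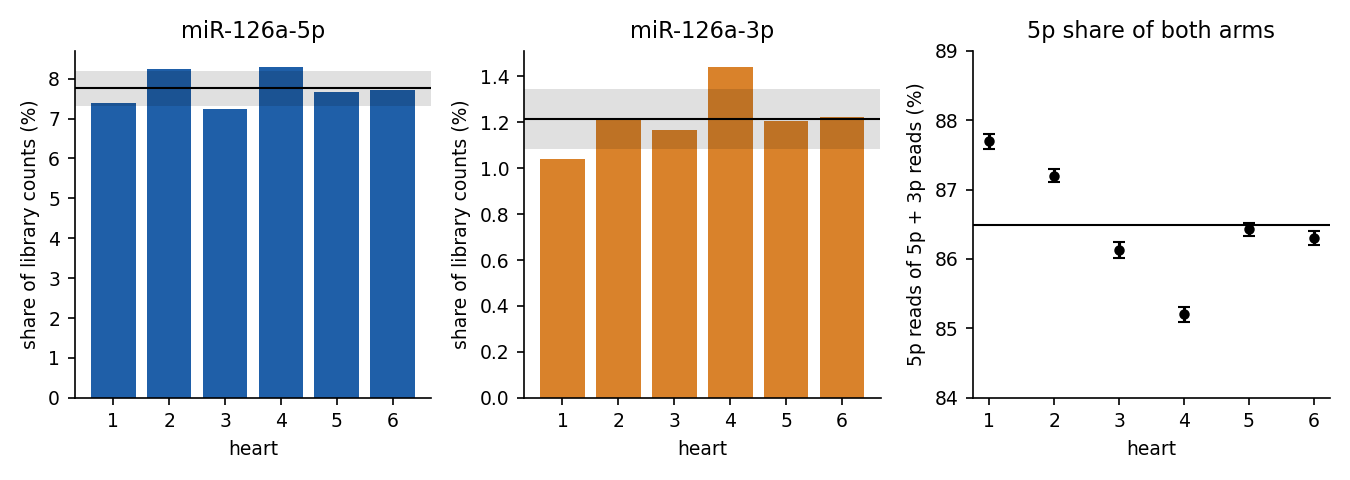
Share of library counts (%) of miR-126a-5p (left) and miR-126a-3p (middle) as bars per heart, with the mean (line) and 1 SD (grey band), and the 5p share of the reads of both arms (right) as points with exact 95% intervals and the mean as a line, on an axis from 84 to 89. The 5p arm stayed between 7.23% and 8.29%, the 3p arm between 1.04% and 1.44%, and heart 1 had the highest and heart 4 the lowest 5p share.

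The 5p arm gave several times the reads of the 3p arm in each heart. There were 7.13, 6.81, 6.21, 5.76, 6.37 and 6.30 reads of 5p per read of 3p in hearts 1 to 6, with no heart near equal arms. In edgeR's quasi-likelihood fit, in which each library was a block, miR-126a-5p was 6.41-fold above miR-126a-3p (log2 ratio 2.68 ± 0.09, SE, n = 6, adjusted p = 6.07e-141, higher in 6 of 6 hearts). That p rests on a spread that edgeR largely pooled over hairpins. An exact sign-flip permutation test of the 6 log2 ratios gave a two-sided p = 0.03125, the smallest that 6 hearts allow. Adapters join some RNA ends more readily than others, so this is a ratio of reads and not of molecules.

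An excess of 1 arm was common. The fit held 213 hairpins that list both arms and average 10 or more reads over both. Of these, 103 (48.4%) had at least a 2-fold excess of 5p at an adjusted p under 0.05, and 87 (40.8%) such an excess of 3p. Among the 103, miR-126a had one of the smaller ratios, number 88 from the top, and their median was 38.8-fold. The hairpins just above it were miR-324 (6.56-fold), miR-17 (6.77-fold) and miR-15b (6.97-fold), and those just below were miR-744 (6.40-fold), miR-802 (5.91-fold) and miR-425 (5.36-fold). Some of these ratios rest on few reads, with means per heart of 12.3 for miR-802-5p and 14.3 for miR-324-3p. These neighbours were not tested against miR-126a.

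The less abundant arm of miR-126a had more reads than that of any other hairpin tested. miR-126a-3p averaged 12135 ± 1298 CPM (SD, n = 6), against 2456 CPM for the less abundant arm of miR-151 and 1471 CPM for that of miR-30e, which were next. It made up 51.1% of the mean CPM of all 213 less abundant arms together. This comparison was chosen after the values were seen and is given without a test.

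**Figure D3:**
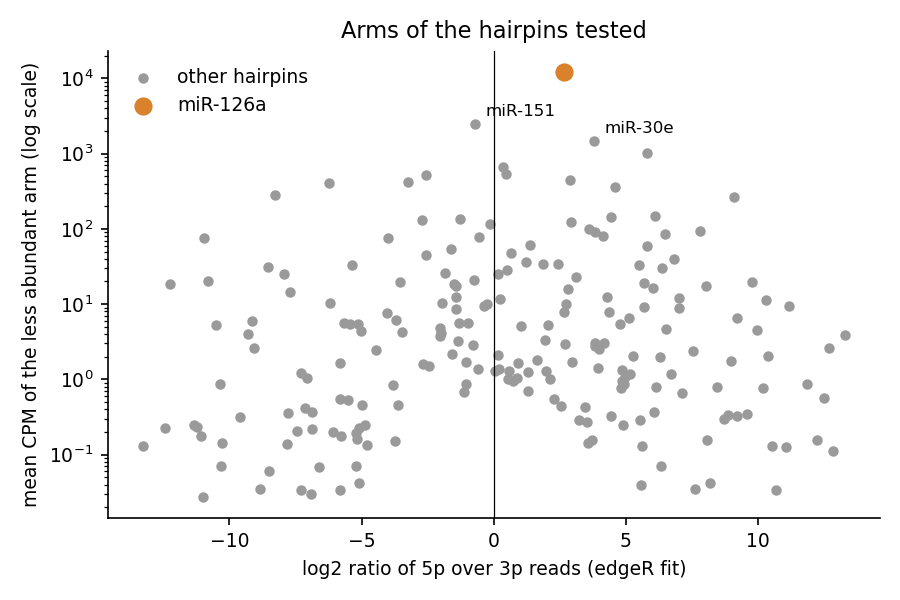
Each point is 1 tested hairpin, with the log2 ratio of 5p over 3p reads on the x axis and the mean CPM of its less abundant arm on a log y axis (hairpins whose less abundant arm had no reads are not drawn). miR-126a (orange) has a moderate 5p excess of 2.68 on the log2 scale and the highest point on the y axis, 12135 CPM.

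The division between the arms moved little between hearts, yet by more than counting error. The 5p arm held 87.7%, 87.2%, 86.1%, 85.2%, 86.4% and 86.3% of the miR-126a reads in hearts 1 to 6, a mean of 86.5% ± 0.869 (SD, n = 6). Hearts 1 and 2 lay above the others and heart 4 below, and the interval of heart 4 (exact Clopper-Pearson 95%, 85.1% to 85.3%) did not touch that of heart 1 (87.6% to 87.8%). A chi-square test of the arm counts against counting error gave 1305 on 5 degrees of freedom (adjusted p = 1.28e-277 over all hairpins). The same test called 57 of the 213 hairpins (26.8%), and 40 of the 46 in which each arm averaged 100 or more reads, so at this depth a call was usual. Without heart 4 the statistic for miR-126a was 646 and without heart 1 it was 733, both still past the threshold. The SD of the log2 arm ratio was 0.11 for miR-126a, number 5 from the lowest of those 46, whose median was 0.23 and whose range was 0.06 to 0.50.

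Once the libraries were scaled, both arms were steadier between hearts than most other abundant miRNAs. After TMM scaling, which corrects for differences in library composition, miR-126a-5p had 76298, 86228, 72852, 75527, 73636 and 81172 CPM in hearts 1 to 6, a coefficient of variation (CV, SD over mean) of 6.61%. Heart 2 was the highest after scaling, whereas heart 4 was the highest as a share of the library total. miR-126a-3p had 10708, 12654, 11727, 13117, 11564 and 12882 scaled CPM and a CV of 7.67%, with heart 1 lowest and heart 4 highest on both scales. Among the 207 miRNAs that averaged 100 or more reads, whose median CV was 12.3%, the 5p arm had the 21st and the 3p arm the 35th lowest CV. Among the 95 that averaged 1000 or more reads, whose median CV was 9.65%, they had the 16th and the 25th lowest. On library totals without TMM the CV was 5.59% for the 5p arm and 10.7% for the 3p arm.

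The CVs of both arms were well above counting error, which would give 0.162% for the 5p and 0.410% for the 3p arm. The chi-square statistic of the 6 counts was 8264 for the 5p arm and 1699 for the 3p arm on 5 degrees of freedom. This test called 242 of 346 miRNAs (69.9%) and all 95 that averaged 1000 or more reads, so a call was usual at this depth too. The statistic was 3133 for the 5p arm without heart 2 and 809 for the 3p arm without heart 1, both still past the threshold. edgeR's biological coefficient of variation, which is drawn toward that of miRNAs of similar abundance, was 10.8% for the 5p and 11.4% for the 3p arm. With 1 library per heart, this spread holds library preparation as well as the animals.

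**Figure D4:**
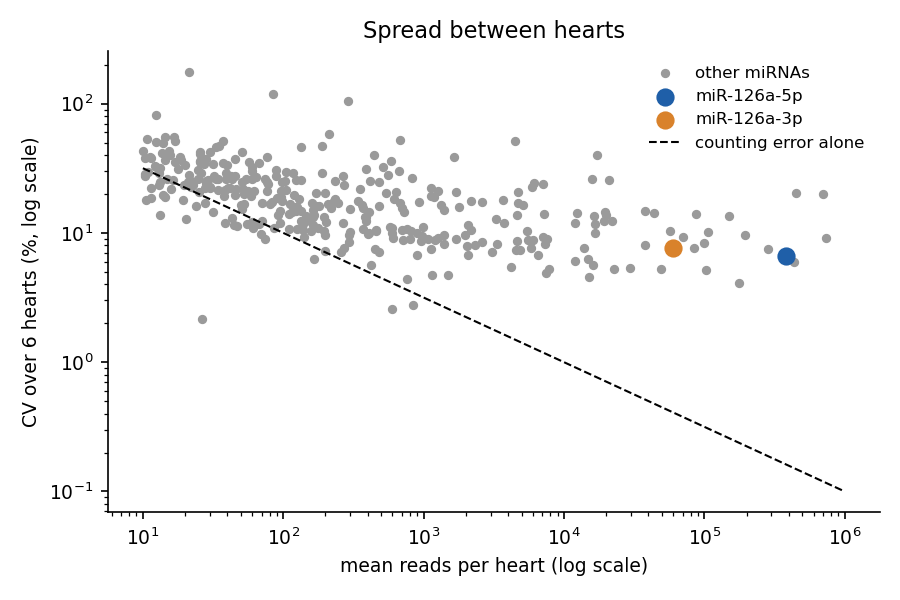
CV over 6 hearts (%) against mean reads per heart, both on log axes, for the 346 miRNAs tested; the dashed line is the CV that counting error alone gives. miR-126a-5p (blue, 6.61%) and miR-126a-3p (orange, 7.67%) lie in the lower part of the cloud and far above the dashed line.

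How far the arms rose and fell together over hearts depended on the scaling. On log2 scaled CPM, Pearson's r was 0.47 (exact permutation p = 0.356) and Spearman's rho 0.26 (exact permutation p = 0.658), two-sided, n = 6. With hearts 2 and 6 left out, whose 5p values lay farthest from the median, r was -0.09. With DESeq2 size factors r was 0.55 (exact permutation p = 0.233) and rho 0.71 (exact permutation p = 0.136), and r was 0.65 with the same hearts left out. On library totals without TMM, r was 0.73 (exact permutation p = 0.100) and rho 0.89 (exact permutation p = 0.0333), and r was 0.55 with hearts 2 and 4 left out. The correlation was positive on each scale over all 6 hearts, passed 0.05 only as rho on library totals, and lost its sign only after TMM with hearts 2 and 6 left out. The p-values of these 6 correlations are unadjusted.

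In the order of all 975 miRNAs by mean CPM, the 5p arm was number 5 and the 3p arm number 16. miR-126a-5p averaged 77582 ± 4338 CPM, and miR-143-3p, the smooth muscle miRNA just above it, 88965 ± 16616 CPM (SD, n = 6). Their ratio ran from 0.682 in heart 5 to 1.28 in heart 4, and no difference passed the test (higher in 1 of 6 hearts, exact sign-flip permutation p = 0.219, adjusted p = 0.25). miR-30a-5p, just below, averaged 57611 ± 3289 CPM, and miR-126a-5p was 1.35-fold above it in 6 of 6 hearts (exact permutation p = 0.03125, adjusted p = 0.05).

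miR-126a-3p stood beside miR-16-5p and miR-148a-3p. It was 0.846 times miR-16-5p (higher in 1 of 6 hearts, exact permutation p = 0.0625, adjusted p = 0.0833) and 1.05 times miR-148a-3p (exact permutation p = 0.469, adjusted p = 0.469, higher in 3 of 6). The log2 ratio to miR-16-5p averaged -0.24 ± 0.20 and that to miR-148a-3p 0.07 ± 0.20 (SD, n = 6), so the mean was larger than the SD for miR-16-5p and smaller for miR-148a-3p. These exact tests were two-sided and adjusted over 8 ratios. None of the 8 had an adjusted p under 0.05 and 5 had an unadjusted p of 0.03125, the smallest possible, which adjustment took to 0.05 and so to the threshold itself. With 6 hearts a ratio that misses the threshold does not show equal levels.

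The other endothelial miRNAs on the list, miR-221-3p and miR-222-3p, had far fewer reads. They come from 1 cluster on chromosome X, are known to be abundant in endothelial cells, and share a seed, which is why they are shown.
miR-221-3p: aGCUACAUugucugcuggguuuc
miR-222-3p: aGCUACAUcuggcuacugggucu

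miR-126a-5p was 334-fold above miR-221-3p, whose mean was 233 CPM, the ratio being lowest in heart 1 (298) and highest in heart 6 (393). It was 837-fold above miR-222-3p, whose mean was 93.4 CPM, the ratio being lowest in heart 4 (680) and highest in heart 2 (1025). miR-126a-3p was 52.0-fold above miR-221-3p and 130-fold above miR-222-3p. Each of these ratios was above 1 in 6 of 6 hearts (exact permutation p = 0.03125, adjusted p = 0.05).

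Each list of markers of the other cell types of the heart had reads in every library. All 6 cardiac and skeletal muscle miRNAs and both of smooth muscle averaged 10 or more reads. So did all 3 fibroblast, all 3 erythroid and all 5 leukocyte miRNAs. miR-221-3p and miR-222-3p did too, the remaining members of the endothelial list being the arms of miR-126a themselves. Of the 6 epithelial, liver and neural miRNAs, 5 did, and the summed level of the 6 was only 66.4 to 146 CPM. Of all 975 miRNAs, 346 averaged 10 or more reads. Summed levels ran from 94607 to 106933 CPM for cardiac and skeletal muscle and from 65604 to 113480 CPM for smooth muscle miRNAs. They were lower for the other lists, from 2264 to 5878 CPM for erythroid, from 2951 to 3770 CPM for leukocyte and from 3103 to 5720 CPM for fibroblast miRNAs. The part of these cell types in the level of miR-126a was not tested.

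The ratio of miR-126a-5p to the lead miRNA of each list was taken within each library, which needs no scaling. Against miR-133a-3p, the lead muscle miRNA, it was 0.844, 0.910, 0.836, 0.859, 0.919 and 0.866 in hearts 1 to 6. The highest was 1.10 times the lowest. Against miR-143-3p the ratio ranged 1.87-fold, against miR-142a-5p of leukocytes 1.92-fold, and against miR-199a-3p of fibroblasts 2.06-fold, with heart 5 lowest. Against miR-451a, an miRNA of red cells, it was 14.0 in heart 1, 18.5 in heart 2, 21.7 in heart 3, 43.5 in heart 4, 20.7 in heart 5 and 35.5 in heart 6. The relation to miR-133a-3p thus moved least among these leads, which does not hold for the muscle list as a whole. That to miR-451a moved more than for any other lead but miR-122-5p of the epithelial, liver and neural list. miR-122-5p averaged 212 reads per heart, the fewest of the leads, and its ratio ranged 7.93-fold. Its counts differed between hearts by more than counting error (chi-square test, adjusted p = 5.35e-70).

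**Figure D5:**
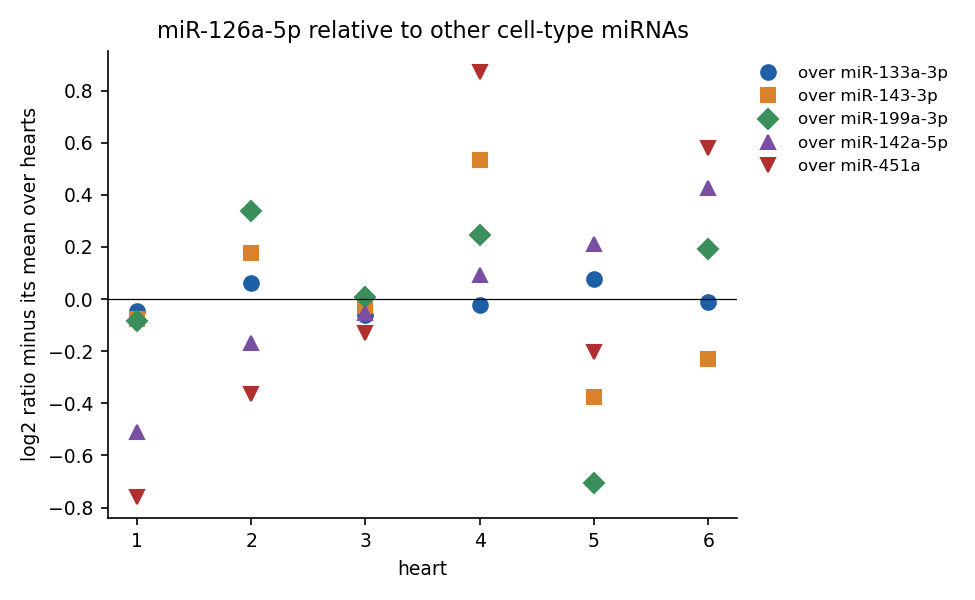
Log2 ratio of miR-126a-5p to the lead miRNA of 5 cell-type lists in each heart, less its mean over the 6 hearts (y axis), by heart (x axis). Ratios to miR-133a-3p (blue circles, SD 0.06) lie near 0, while those to miR-451a (red triangles, SD 0.61) spread widely.

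Among 93 other miRNAs averaging 1000 or more reads, those most like miR-126a-5p were taken as the ones whose log2 ratio to it had the smallest SD over the 6 hearts. They were miR-133a-3p (SD 0.06), miR-322-5p (0.06), miR-497a-5p (0.07), the antifibrotic miR-29c-3p (0.08) and miR-499-5p (0.08), an miRNA of the myosin gene Myh7b. Of these, miR-322-5p and miR-497a-5p belong to the seed family of miR-16. The median SD was 0.18 and the highest 0.63. For the 3p arm of its own hairpin the SD was 0.11, and 10 of the 93 lay below that. The ratios were taken within each library, and these values describe steadiness over 6 hearts and nothing more.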

How the data were processed

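Small RNA of 6 mouse hearts was profiled. Per the file headers, each deposited row holds a name, a location and a whole-number read count per mature arm and locus, not normalized. Per the labels' protocols, RNA was extracted with Trizol and libraries were made with a TruSeq small RNA kit by adapter ligation and PCR, with no molecular identifiers named. GRCm38 is the build named in the submitters' processing notes, which also list DESeq and edgeR with no step given. Which aligner and counter were used, and how multiply mapping reads were shared out, is not given in the sources used here.

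Of 76 antisense rows, 38 were assigned to the hairpin that GENCODE M21 annotates on the opposite strand, and 38, at most 0.000706% of a library, were left out of totals. Values of miR-486 and miR-142a come from rows so assigned. Loci of 1 mature name were summed, so the values of miR-133a-3p, miR-16-5p and miR-199a-3p cover more than 1 locus. CPM was taken on these totals, 10 reads being 1.66 to 2.52 CPM, and a miRNA at 0 could be as high as 0.499 to 0.756 CPM (3 counts).

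Arms of all hairpins were fitted together with edgeR 4.0.16 (R 4.3.3), with the library as a block and the library total as offset for both arms, Benjamini-Hochberg adjusted. The SE is the log2 ratio over the root of its F statistic. Spread was estimated after TMM scaling over miRNAs averaging 10 or more reads, and chi-square tests compared counts with counting error. Single ratios had exact sign-flip permutation tests (SciPy 1.17.1). Folding used RNAfold 2.7.2. DESeq2 1.42.0, other scalings, filters and left-out hearts were alternatives. On simulated arms with the same spread for all hairpins, unlike real hairpins, the arm test called 100% of 4-fold and 96% of 2-fold differences. It called 0.885% of hairpins without a difference, at an adjusted p under 0.05. The chi-square test of counts called 75.8% of simulated miRNAs given a 20% spread and 1.23% of those with counting error alone. The p-values of the permutation tests measure only the spread between these samples, part of which may be technical. That of the arm fit also draws on the spread pooled over hairpins, and those of the chi-square tests are set against counting error. Intervals cover counting error only.

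The members, lists and tests were chosen with earlier results of these data known. The named miRNAs are both arms, their neighbours in abundance, the endothelial, lead and 5 most alike miRNAs, and the 3 hairpins on each side of miR-126a in arm ratio.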

Additional observations from a re-analysis of the deposited data

How the results depend on the processing

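The 5p excess of miR-126a kept its direction and its call under every alternative run, with a log2 ratio of 2.65 to 2.71 when each heart was left out in turn, 2.68 without the replicate block (adjusted p = 4.11e-18) and 2.72 without hearts 4 and 5, which was chosen after the data were examined. No paired analysis was possible between groups because the samples form 1 group. Hairpins with an arm difference numbered 190, with 188 to 192 when a heart was left out, 184 of 206 on sense rows only, 141 of 153 at a minimum of 100 reads and 219 of 329 with no minimum, a smaller share than 190 of 213. The level of miR-126a-5p depends on what the total holds, with 89392 CPM on sense rows only and 90459 CPM without miR-486. For miR-126a-3p these were 13971 and 14130 CPM, and both totals are smaller by construction. Of the 5 miRNAs most like miR-126a-5p, 3 remained with a minimum of 100 reads and 4 by Pearson's r. Spearman's rho between the arms, 0.26 after TMM, passed the threshold on library totals (0.89, exact permutation p = 0.0333, n = 6). The other alternatives, 139 planned and 7 added, kept their call or stayed within 1.5 times a count or the SD of a value. With 5 hearts the exact test cannot go below 0.0625, so leaving out a heart gave values only.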
